A study of Mus musculus with 2 samples.

Results

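The genes described here encode the growth cone and collapsin response mediator proteins (CRMPs) of the mouse neural tube: Crmp1, Dpysl2, Dpysl3, Dpysl4 and Dpysl5, which form the CRMP family, and Gap43, Basp1, Marcks and Marcksl1, which encode acidic proteins attached to the plasma membrane. They were taken by name and matched by Ensembl identifier in the gene and transcript tables. The choice used no threshold on measured values, but it was made with earlier results of these data known. They are 9 of 43346 mouse genes in the tables, and all 9 were found. The study measured total RNA of the neural tube, the embryonic structure that becomes brain and spinal cord, by RNA sequencing. It has 1 group of 2 libraries, both from B6NCrl embryos at embryonic day 12.5 with no genetic change or treatment given in the labels. The pool of replicate 1 came from 120 embryos and the pool of replicate 2 from 88. Males and females were mixed in each, and both have the same donor identifier. Library input was 10 ng of RNA above 200 nucleotides. A newer series replaces this one, per its title, and was not analysed here.

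A growth cone is the motile tip of a growing axon, where actin and microtubules are rearranged in response to guidance cues. CRMPs are cytosolic proteins that assemble into tetramers, bind tubulin and carry the signal of the repellent semaphorin 3A from its receptors to the cytoskeleton, under control of kinases such as Cdk5 and Gsk3b. Gap43, Basp1, Marcks and Marcksl1 sit on the inner face of the membrane through lipids and a basic stretch of protein, gather the phosphoinositide PIP2 there, and are regulated by protein kinase C and, in several cases, by calmodulin.

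The membrane-attached members differ from one another in the first codons of their reading frames, and these are shown because the lipid is attached there. Each sequence is the first 30 bases of the coding sequence of the main transcript, from GENCODE M21 on GRCm38. Capitals mark the glycine codon at position 2 of Basp1, Marcks and Marcksl1, the residue that N-myristoyltransferases modify once the first methionine has been removed, and the cysteine codons 3 and 4 of Gap43, which are palmitoylated.
Gap43: atgctgTGCTGTatgagaagaaccaaacag
Basp1: atgGGAggcaagctgagcaagaagaagaag
Marcks: atgGGTgcccagttctccaagaccgcagcg
Marcksl1: atgGGCagccagagctctaaggctccccgg
The 3 glycine codons are spelled differently in the 3 genes, and Gap43 has no glycine codon at position 2.

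The basic stretch is shown next, as the 25 codons in a row (75 bases) of the Basp1, Marcks and Marcksl1 coding sequences that hold the most lysine and arginine codons. The first such stretch is shown where several hold the same number, as 4 do in Basp1 and 2 in Marcksl1. Capitals mark serine codons, since the residues on which protein kinase C acts are among the serines of these stretches.
Basp1: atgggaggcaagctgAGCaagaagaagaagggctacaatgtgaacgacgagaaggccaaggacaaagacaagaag
Marcks: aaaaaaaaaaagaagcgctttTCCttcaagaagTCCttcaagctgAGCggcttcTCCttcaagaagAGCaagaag
Marcksl1: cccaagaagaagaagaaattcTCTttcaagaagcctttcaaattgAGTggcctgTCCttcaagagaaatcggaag
The stretch spans codons 1 to 25 in Basp1, 145 to 169 in Marcks and 86 to 110 in Marcksl1. It holds 10, 13 and 12 lysine or arginine codons in that order. In Basp1 the only serine codon of the stretch is codon 6, and the stretch shown, the first of the 4, includes the lipid-bearing end shown above. Marcks has 5 serine codons there (152, 156, 160, 163 and 167) and Marcksl1 has 3 (93, 101 and 104). The stretches of Marcks and Marcksl1 were identical at 52 of 75 bases (69.3%) without gaps, hold 5 and 4 phenylalanine codons, and hold no codon for aspartate or glutamate. Over the whole coding sequence the 4 proteins are rich in alanine and glutamate: alanine makes up 20.3% of Gap43 codons, 29.2% of Basp1, 28.8% of Marcks and 15.5% of Marcksl1, and glutamate between 15.0% (Gap43 and Marcksl1) and 17.7% (Basp1).

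Levels are given as deposited TPM (a transcript's share of all transcripts, corrected for length and depth), so that genes may be compared with one another, and errors are the SD of the 2 libraries. Marcksl1 (ENSMUSG00000047945, GRCm38 chromosome 4, 129513581 to 129515985) had the highest level of the 9 genes. It stood at 1878 TPM in replicate 1 and 1757 TPM in replicate 2 (1817 ± 85.8 TPM, n = 2), rank 23 of 21461 nuclear protein-coding genes. Its paralog Marcks (ENSMUSG00000069662, chromosome 10, 37133375 to 37138920), the founding member of that pair and a major protein kinase C substrate, stood at 248.8 and 255.9 TPM (252 ± 4.99 TPM, n = 2). Marcksl1 was thus 7.55-fold above Marcks in replicate 1 and 6.87-fold in replicate 2, a log2 difference of 2.85 ± 0.10 (SD, n = 2) that is far larger than the spread between libraries. By expected counts, which take no account of length, the log2 difference was 1.46. The Marcks transcript is 4048 bases long and that of Marcksl1 1605.

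Gap43 (ENSMUSG00000047261, chromosome 16, 42248442 to 42340651), the classic marker of growing and regenerating axons, stood at 400.2 TPM in replicate 1 and 447 TPM in replicate 2 (424 ± 33.4 TPM, n = 2). Basp1 (ENSMUSG00000045763, chromosome 15, 25363277 to 25413764), an acid-soluble brain protein enriched in axon endings, stood at 324 and 386 TPM (355 ± 44.2 TPM, n = 2). Gap43 was above Basp1 in both libraries, by 1.24-fold and 1.16-fold, and their library values did not overlap. Of the summed TPM of the 4 membrane-attached genes (2851 in replicate 1 and 2846 in replicate 2), Marcksl1 held 65.9% and 61.7%, Gap43 14.0% and 15.7%, Basp1 11.4% and 13.6%, and Marcks 8.73% and 8.99%.

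**Figure D1:**
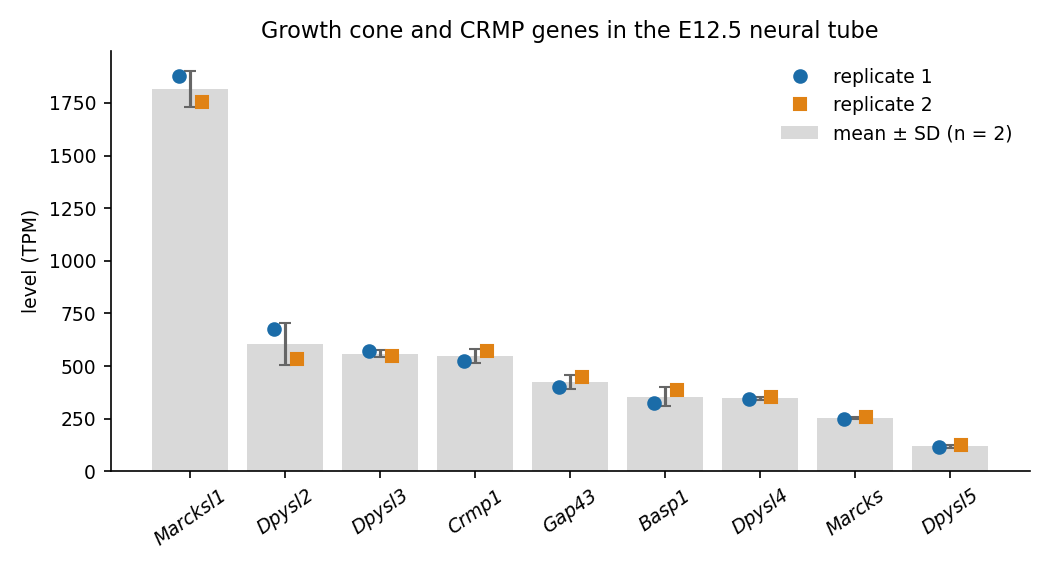
Level in TPM (vertical axis, linear, from 0) of the 9 genes, with 1 point per library, bars at the mean and error bars of 1 SD (n = 2). Marcksl1 stands apart at 1817 TPM, Dpysl2, Dpysl3 and Crmp1 lie close together between 547 and 604 TPM, and Dpysl5 is lowest at 118 TPM.

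Within the CRMP family 3 genes shared most of the RNA and their order differed between the libraries. Dpysl2 (ENSMUSG00000022048, chromosome 14, 66802864 to 66868688) encodes CRMP2, the best studied member, which carries tubulin dimers to growing microtubule ends. It stood at 674 TPM in replicate 1 and 534 TPM in replicate 2 (604 ± 99.5 TPM, n = 2). Dpysl3 (ENSMUSG00000024501, chromosome 18, 43320984 to 43438286), which encodes CRMP4, stood at 573 and 547 TPM (560 ± 18.4 TPM, n = 2). Crmp1 (ENSMUSG00000029121, chromosome 5, 37241940 to 37292133) stood at 523 and 570 TPM (547 ± 32.8 TPM, n = 2). Dpysl2 was the highest of the 3 in replicate 1 and the lowest in replicate 2, where Crmp1 was highest. The library values of Dpysl2 overlapped those of Dpysl3, and those of Dpysl3 overlapped those of Crmp1, so these neighbours did not differ beyond their spread.

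The other CRMP genes were lower. Dpysl4 (ENSMUSG00000025478, chromosome 7, 139086001 to 139102704), which encodes CRMP3, stood at 343 and 353 TPM (348 ± 7.31 TPM, n = 2), and its library values lay inside the range of Basp1. Dpysl5 (ENSMUSG00000029168, chromosome 5, 30711564 to 30799375) encodes CRMP5, the most divergent member of the family. It stood at 113 and 123 TPM (118 ± 7.11 TPM, n = 2), the lowest of the 9 genes, and its level was 4.62-fold under that of Crmp1 in each library. From highest to lowest the order was Marcksl1, Dpysl2, Dpysl3, Crmp1, Gap43, Basp1, Dpysl4, Marcks and Dpysl5. Apart from Dpysl2 with Dpysl3, Dpysl3 with Crmp1, and Basp1 with Dpysl4, the library values of neighbours in this order did not overlap.

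The family's summed level was 2226 TPM in replicate 1 and 2126 TPM in replicate 2. Crmp1 held 23.5% and 26.8% of that sum, Dpysl2 30.3% and 25.1%, Dpysl3 25.7% in both, Dpysl4 15.4% and 16.6%, and Dpysl5 5.09% and 5.80%. The share of Dpysl3 was the steadiest between the libraries and that of Dpysl2 moved most. By expected counts, not divided by length, Dpysl2 held 40.3% and 34.1% and Dpysl3 19.3% in both. The Dpysl2 transcript is 4520 bases long and the main Dpysl3 transcript 2106. That Dpysl3 transcript is annotated to end at 43324288 on the minus strand, whereas the longest form, Dpysl3-204, runs on to 43320984. The near tie by TPM thus depends on the annotated lengths. These are RNA levels in whole tissue, where fewer cells of a type and less RNA per cell cannot be told apart.

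**Figure D2:**
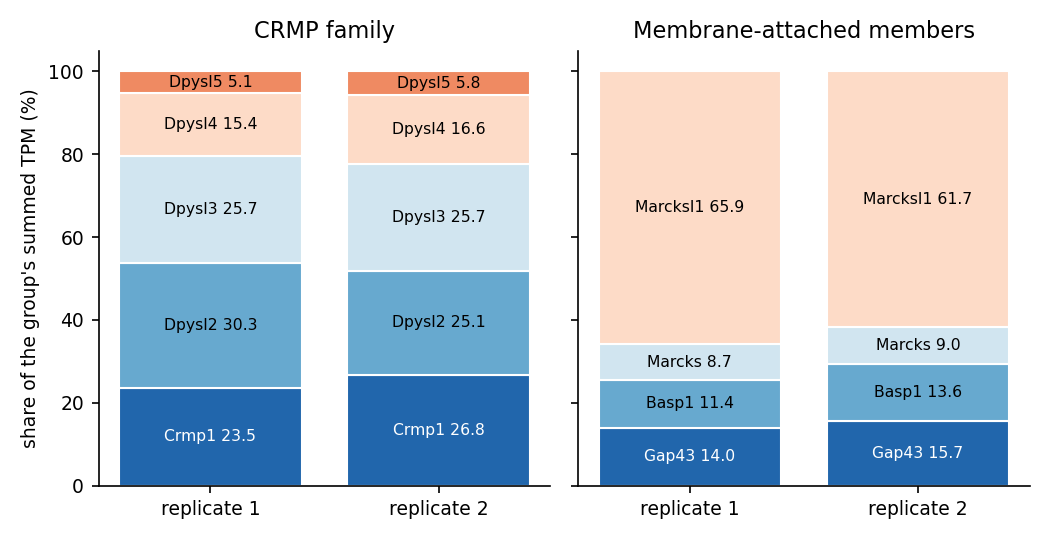
Share (%) of the summed TPM of the CRMP family (left) and of the 4 membrane-attached genes (right) held by each gene, 1 stacked bar per library. Dpysl2 takes 30.3% of the CRMP bar in replicate 1 and 25.1% in replicate 2, and Marcksl1 takes more than any other gene of its bar in both libraries (65.9% and 61.7%).

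All 9 genes had a mean above 100 TPM, a level reached by 1744 of the 15735 genes tested, those averaging 1 TPM or more. Their median was 424 TPM, against 16.8 TPM over those 15735 genes and 20.7 TPM over detected protein-coding genes. They summed to 5077 TPM in replicate 1 (0.508% of the total) and 4973 TPM in replicate 2 (0.497%). Expected counts per gene ran from 10503 (Gap43 in replicate 1) to 59293 (Dpysl2 in replicate 1), so counting error was small for each. In all, mouse genes held 31610805 and 33530172 expected counts.

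The 2 pools were then compared gene by gene, as log2 of (TPM + 1) in replicate 2 over replicate 1. With 1 library per pool this comparison has no replicate check and no p-value. None of the 9 genes (0) differed by over 2-fold, as did 1.43% of all tested genes in either direction. Of the 9, 6 were higher and 3 lower in replicate 2, with a median log2 ratio of 0.04 against 0.03 over all tested genes. The authors' tables also give an interval for each TPM, which covers quantification error only. These intervals were separate between the libraries for 8 of the 9 genes, 5 higher and 3 lower in replicate 2, against 14.3% of all tested genes and 29.1% of genes averaging 100 TPM or more. The intervals lie around a second TPM estimate, the posterior mean, and 14 of the 18 TPM values of these genes lie above their own interval.

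Dpysl2 had the largest difference between the pools. Its TPM was lower in replicate 2, a change of -20.9% (log2 ratio -0.34), and its count ratio was -0.37 on the log2 scale, with an exact 95% interval from -0.39 to -0.35 that covers counting error only. Among the 1744 genes at 100 TPM or more, whose log2 ratios had an SD of 0.11, 12 (0.688%) were as low or lower. Basp1 lay at the other end, 19.3% higher in replicate 2 (log2 ratio 0.25, count ratio 0.22 with an interval from 0.19 to 0.26), and 15 of those genes (0.860%) were as high or higher. Gap43 was 11.8% higher (0.16), Crmp1 8.86% (0.12) and Dpysl5 8.87% (0.12). Marcksl1 and Dpysl3 were lower, with changes of -6.46% (-0.10) and -4.55% (-0.07). Dpysl4 was 3.02% higher (0.04), with overlapping TPM intervals and a count ratio of 0.04 (0.01 to 0.07). Marcks was 2.83% higher by TPM (0.04), but its count ratio, scaled by the libraries' count totals, was 0.01 with an interval from -0.02 to 0.04. Its log2 ratio was 0.00 by TMM-scaled counts.

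**Figure D3:**
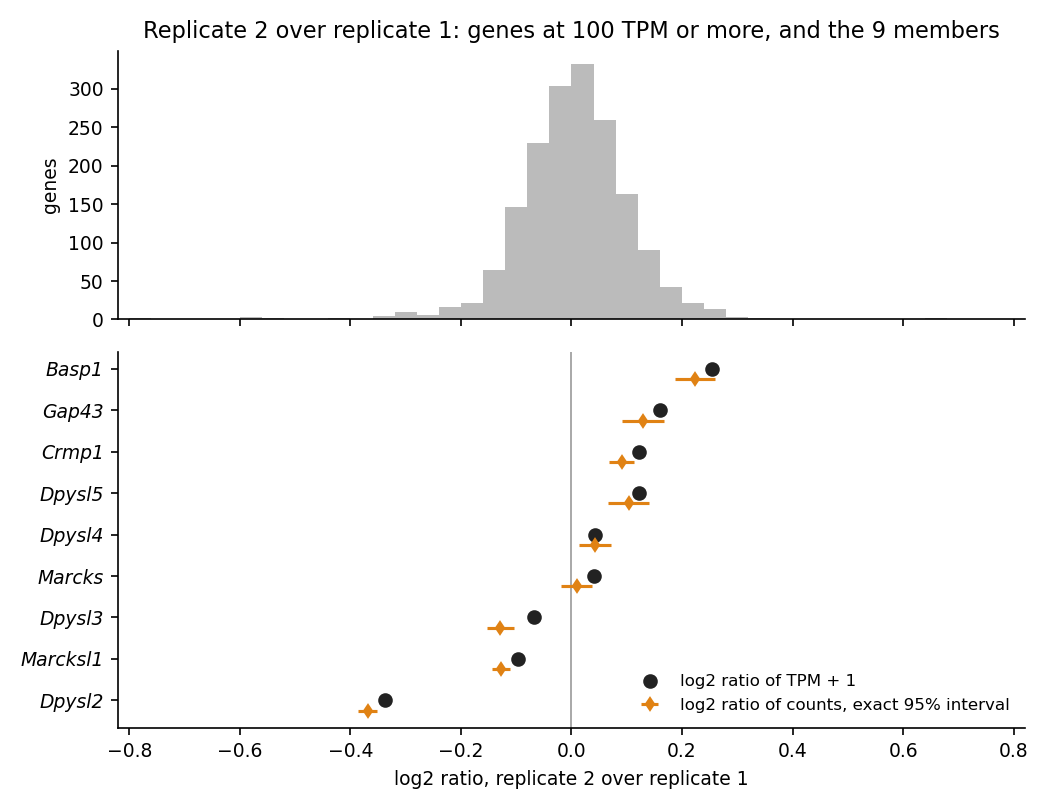
Upper panel: number of genes (vertical axis) averaging 100 TPM or more by log2 ratio of replicate 2 over replicate 1. Lower panel: the same ratio for the 9 genes (black, TPM + 1) with the log2 ratio of scaled counts and its exact 95% interval (orange), where Dpysl2 (-0.34) and Basp1 (0.25) lie at the edges of the distribution above.

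Lists of cell type markers also differed between the same pools. Whether the genes of a list are limited to the named cells in this tissue was not tested, so a sum is not a measure of those cells alone. The 10 neuron markers were detected and 9 of them were higher in replicate 2, with summed levels of 3354 and 3628 TPM in replicates 1 and 2. The 10 neural progenitor markers were also detected, 4 higher and 6 lower, with sums of 3089 and 3177 TPM, so both cell classes of the labelled tissue were present. All 10 sensory ganglion markers were higher in replicate 2 (sums 484 and 671 TPM) and all 8 muscle markers were lower (323 and 229 TPM). Median log2 ratios were 0.11 for neuron, -0.03 for progenitor, 0.35 for sensory ganglion and -0.44 for muscle markers. Over all tested genes the median was 0.03 by TPM, so more genes were higher than lower in replicate 2 on that scale. By TMM-scaled counts the median was 0.002. Neural crest and Schwann cell markers summed to 74.5 and 89.6 TPM, with 4 of 5 tested ones higher. Erythroid markers (11618 and 11192 TPM), endothelial (141 and 146 TPM), pericyte and meningeal (884 and 909 TPM) and macrophage markers (83.6 and 89.4 TPM) were present too. No marker of these lists was at 0 in both libraries. The part of these cells in the ratios of Dpysl2, Basp1 and Gap43 was not tested.

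Crmp1 RNA was assigned in both libraries to 2 annotated transcripts with different first exons. Their promoters and coding starts are shown because the transcripts differ there. The levels are deposited estimates per transcript, and reads of the first exons were not examined on their own. The transcript tables list 2 transcripts of the gene, both protein-coding. Crmp1-202, the longer form with 686 codons, stood at 355 TPM in replicate 1 and 383 TPM in replicate 2. Crmp1-201, with 572 codons, stood at 169 and 187 TPM. Crmp1-202 thus held 67.8% and 67.3% of the gene, and it was 2.10-fold and 2.05-fold above Crmp1-201. The difference in level was larger than the spread between the libraries, and the shares moved by 0.49 percentage points. In the annotation Crmp1-202 starts at 37242080 on chromosome 5 and Crmp1-201 at 37245764, inside the first intron of the longer form and 3684 bases downstream. Their first exons are 446 and 333 bases long, and each transcript has 14 exons. Below are the first 60 coding bases of each, with capitals for the part that the other transcript lacks.
Crmp1-202: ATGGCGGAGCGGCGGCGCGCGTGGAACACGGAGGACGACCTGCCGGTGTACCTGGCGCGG
Crmp1-201: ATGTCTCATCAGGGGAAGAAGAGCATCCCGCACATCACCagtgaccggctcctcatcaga
The own part of Crmp1-202 is 381 bases long and that of Crmp1-201 is 39, after which the remaining 1677 coding bases are the same in both.

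The 250 bases upstream of each start, on GRCm38.p6 from RefSeq and read on the plus strand, are given with capitals for GC boxes (GGGCGG, or CCGCCC on the other strand, overlaps allowed), a motif that Sp-family factors bind.
chr5:37241808-37242057: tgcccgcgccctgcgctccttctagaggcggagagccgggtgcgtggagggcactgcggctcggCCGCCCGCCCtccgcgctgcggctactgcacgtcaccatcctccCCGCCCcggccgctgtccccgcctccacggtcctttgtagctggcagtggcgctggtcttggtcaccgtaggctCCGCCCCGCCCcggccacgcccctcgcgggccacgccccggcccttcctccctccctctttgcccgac
chr5:37245514-37245763: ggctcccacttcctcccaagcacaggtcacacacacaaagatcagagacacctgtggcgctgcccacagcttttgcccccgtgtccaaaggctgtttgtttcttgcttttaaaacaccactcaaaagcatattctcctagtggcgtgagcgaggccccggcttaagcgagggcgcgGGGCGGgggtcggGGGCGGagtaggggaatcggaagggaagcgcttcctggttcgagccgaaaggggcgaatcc
The first window lies before the RefSeq start at 37242058, near the start of the more abundant Crmp1-202, and the second before 37245764, the start of Crmp1-201. In GENCODE M21 the gene starts at 37241940, upstream of Crmp1-202, so part of the first window lies inside the annotated gene. The first is 75.6% G or C with 30 CpG dinucleotides and 5 GC boxes. The second is 59.6% G or C with 16 CpG and 2 GC boxes. Neither holds TATAAA or CCAAT on either strand. Over all 32851 RefSeq promoter windows of this length, 32.7% hold a GC box, 12.4% TATAAA and 33.8% CCAAT, and the medians are 52.4% G or C and 6 CpG. Both windows are thus above the median in CpG, at percentiles 94.1 and 74.6. These matches describe letters in the windows, and binding was not measured.

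**Figure D4:**
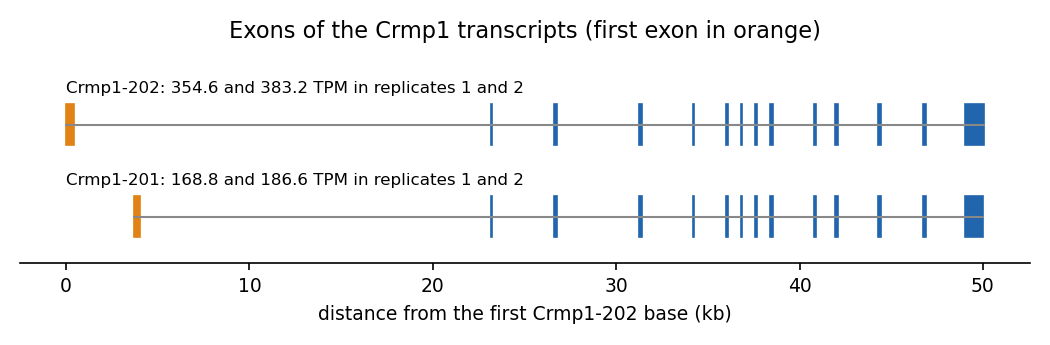
Exons of Crmp1-202 and Crmp1-201 as boxes, drawn to scale by distance in kb from the first base of Crmp1-202, first exons in orange, with levels in TPM printed above each transcript. Only the first exons and the last exon's end differ, and Crmp1-202 is the more abundant in both libraries.

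Of the other members, Dpysl2, Basp1, Marcks and Marcksl1 are listed with 1 transcript each, and Gap43-201 (227 codons) held 99.8% of Gap43 in both libraries. In the tables the 9 genes have 26 transcripts, 15 of which held at least 10% of their gene in at least 1 library. For 9 of these 15 the TPM intervals were separate between the libraries, and 5 of the 9 are the sole or nearly sole transcripts of Dpysl2, Basp1, Marcks, Marcksl1 and Gap43. Among all 5055 transcripts with such a share and a mean at or above 30.1 TPM, the lowest of the 15, the intervals were separate for 22.7%.

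Dpysl3 and Dpysl4 were each divided by the same estimates among several coding forms whose annotated starts differ. Dpysl3-201 (570 codons) held 66.98% of Dpysl3 in replicate 1 and 65.3% in replicate 2. Dpysl3-202 (568 codons) held 17.8% and 20.8%. Dpysl3-204, the long form with 683 codons, held 15.1% and 13.7%, so the longer reading frame was the minor one in Dpysl3 and the major one in Crmp1. Dpysl4-202 (593 codons) held 52.1% and 56.0% of Dpysl4, and Dpysl4-201 (572 codons) 18.6% and 18.5%. Dpysl4-205, annotated with 156 codons, held 10.5% and 6.86%, with overlapping intervals. Transcripts of Dpysl4 with no coding sequence, chiefly Dpysl4-203 and Dpysl4-206, which retain introns, made up 18.8% and 18.7% of the gene. In Dpysl3 such transcripts made up 0.14% and 0.22%, and in Dpysl5 4.12% and 4.62%.

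Dpysl5 was divided between transcripts that have the same coding length. Dpysl5-203 held 50.5% of the gene in replicate 1 and 57.4% in replicate 2, at 57.2 and 70.8 TPM. Dpysl5-201 held 42.8% and 36.7%, at 48.6 and 45.3 TPM. The intervals of Dpysl5-203 were separate between the libraries and those of Dpysl5-201 overlapped. Both have 564 codons, and of these forms the one with the more upstream start (30711564, against 30711894 on chromosome 5) was the one higher in replicate 2.

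**Figure D5:**
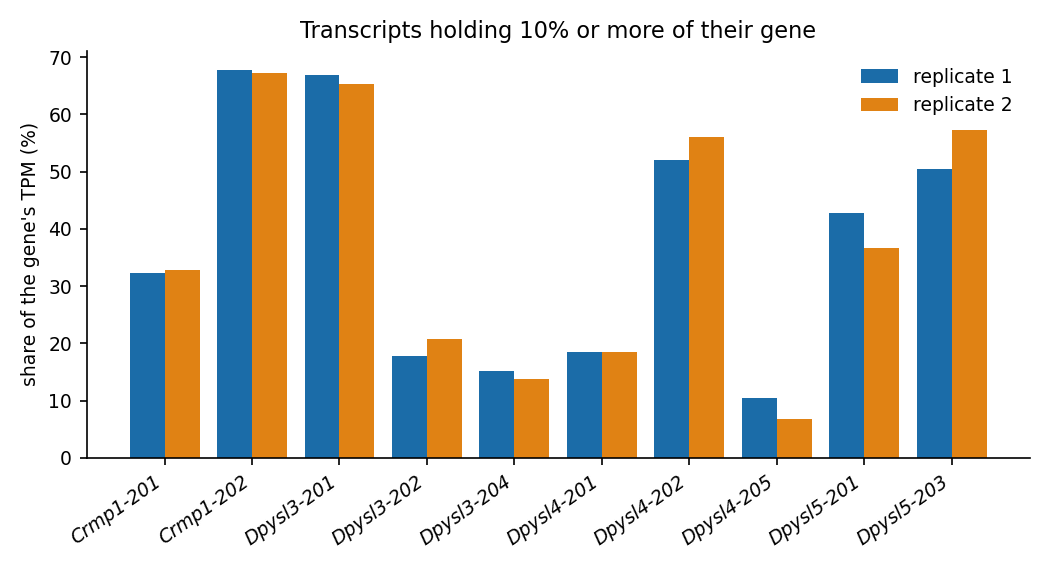
Share (%) of its gene's TPM held by each transcript with at least 10% in 1 library, for the 4 genes with more than 1 such transcript, 1 bar per library from 0. Crmp1 is split 67.8% to 32.2% in replicate 1, and Dpysl5-203 (50.5% and 57.4%) and Dpysl5-201 (42.8% and 36.7%) differ most between the libraries.

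Reads of these paralogs could be assigned to the right gene to the extent that their sequences differ. Proteins translated from the main transcripts were 76.5% identical between Dpysl2 and Dpysl3, 74.7% between Dpysl2 and both Crmp1 and Dpysl4, and 50.1% to 51.3% between Dpysl5 and the others. Marcks and Marcksl1 were 47.0% identical over 200 aligned positions. The longest run of identical coding bases was 29 within the CRMP family and 17 between Marcks and Marcksl1. In the annotation, transcripts of other genes at least 90% identical over at least 100 bases were found for Marcksl1 only: Akr1c19 (11 and 24 expected counts), Gm9089 (6 and 9) and Marcksl1-ps4 (4 and 0), against 56245 and 54614 for Marcksl1. Crmp1 overlaps Evc on the opposite strand (680 and 620 expected counts, against 30237 and 34161 for Crmp1). The sources used here do not give the strand setting of the counting, so reads of the overlap could fall to either gene.

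The genes of the surrounding pathways were also expressed. Their numbers higher or lower in replicate 2 are by TPM. They stand beside a median log2 ratio of 0.03 over all tested genes, most of which were higher there by TPM. By TMM-scaled counts that median was 0.002. Of 8 genes of semaphorin 3A and its receptor complex, 8 reached 1 TPM in both libraries. They were led by Nrp1, the ligand-binding subunit (57.4 ± 5.23 TPM), the adhesion molecule L1cam (38.3 and 56.4 TPM, 47.3 ± 12.8 TPM) and the signalling subunit Plxna3 (41.9 ± 4.57 TPM). All 8 were higher in replicate 2, 3 with separate intervals (14.3% of all tested genes had them), and the median log2 ratio was 0.15. Of 10 genes of CRMP kinases and Cdk5 activators, 10 were detected, led by Gsk3b (120 ± 5.98 TPM), Fyn (62.9 ± 4.71 TPM) and the activator Cdk5r1 (60.6 ± 0.396 TPM). Of these 10 genes 8 were higher and 2 lower in replicate 2 (2 and 1 with separate intervals, against the same 14.3%), with a median log2 ratio of 0.10. The median level was 34.5 TPM for semaphorin 3A with its receptor complex and 17.8 TPM for the kinases and activators, against 547 TPM for the CRMP family itself. The 8 listed CRMP partners, among them motor subunits that carry CRMP2 cargo, were led by Klc1 (407 ± 14.5 TPM), Kif5c (138 ± 2.25 TPM) and Kif5b (115 ± 2.14 TPM), with 5 higher and 3 lower in replicate 2 (median log2 ratio 0.05).

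For the membrane-attached members, the calmodulin genes Calm2 and Calm3 stood above the protein kinase C genes named next. Calm2 stood at 1434 ± 113 TPM and Calm3 at 179 ± 8.67 TPM, and all 7 calmodulin and calcineurin genes were detected, 6 higher and 1 lower in replicate 2 (median log2 ratio 0.05). The 8 protein kinase C genes detected were led by Prkcd (39.2 ± 4.01 TPM), Prkci (29.96 ± 2.06 TPM) and Prkcz (29.0 ± 1.42 TPM). Of these 8 forms 7 were higher and 1 lower in replicate 2 (median log2 ratio 0.08). The 6 listed enzymes that attach lipids, a chosen set, were all detected (2 higher and 4 lower, median log2 ratio -0.03). Among these 6 the highest were the palmitoyltransferase Zdhhc3 (65.0 ± 0.255 TPM) and the N-myristoyltransferases Nmt2 (46.8 ± 1.32 TPM) and Nmt1 (37.1 ± 2.38 TPM).

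Gap43's small calmodulin-binding relatives were lower than Gap43 in both libraries: Pcp4 stood at 36.5 ± 1.71 TPM and Nrgn, a protein of mature dendrites, at 7.19 ± 1.94 TPM. Dpys, the liver dihydropyrimidinase whose fold the CRMPs share, stood at 0.145 ± 0.0354 TPM. Of 20 other growth cone genes 20 were detected, with a median of 118 TPM, led by Rtn1 (831 ± 22.3 TPM), Cd24a (649 ± 9.39 TPM) and the actin-bundling Fscn1 (613 ± 8.29 TPM). Of them 13 were higher and 7 lower in replicate 2 (8 and 3 with separate intervals, against 14.3% of all tested genes and 29.1% of those at 100 TPM or more), with a median log2 ratio of 0.04, the same as for the 9 members. No gene of these pathway lists (0) differed by over 2-fold between the pools, against 1.43% of all tested genes, so a count of 0 is close to that share.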

How the data were processed

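The 2 libraries were read from their gene and transcript tables. Per the deposited read-me text, values refer to assembly mm10 and GENCODE annotation M4, with the program not given in the sources used here. The expected counts (estimated reads, which need not be whole), TPM (corrected for effective length and depth) and percent of each transcript within its gene were deposited by the authors, as were the bounds of an interval for each TPM whose level is not stated in the sources used here. A posterior mean version of TPM and of the percent values was used as an alternative.

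Names, coordinates (1-based) and coding sequences came from GENCODE M21 on GRCm38, matched by identifier (42462 of 43346 mouse genes, and 25 of the members' 26 transcripts, 21 of them with the same length). The libraries held 32612423 and 34555002 expected counts in all. Ratios used a pseudocount of 1 and genes averaging 1 TPM or more. A fold on this scale understates differences of low genes. Count ratios, divided by the libraries' mouse gene totals, have exact 95% binomial intervals. The reads carry no molecular identifiers in these tables, so intervals cover counting error only. The libraries are separate pools of embryos, 1 library each, and no p-value was computed.

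Alternatives were pseudocounts of 0.1 and 5, no filter, the posterior mean, counts not corrected for length, edgeR 4.0.16 TMM factors (0.997 and 1.003), DESeq2 1.42.0 size factors (0.968 and 1.03) and each library alone. Other tools were Python 3.11.15, pandas 2.3.3, scipy 1.17.1, Biopython 1.88 (alignments) and blastn 2.17.0. The ratio formula was also run on simulated counts, and no result given here rests on that run. Named were all 9 members, their transcripts with at least 10%, and of each pathway list the 3 highest genes and those under 1 TPM in both libraries. Evc, Akr1c19, Gm9089 and Marcksl1-ps4 were named for overlap or similarity. Some genes that the rule takes and 1 sequence are not reported here. Dpysl4-203 and Dpysl4-206, under 10%, were chosen after their values were seen. The members and lists were chosen with earlier results of these data known.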

Additional observations from a re-analysis of the deposited data

How the results depend on the processing

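With each alternative tried (pseudocounts, no filter, posterior mean, TMM and DESeq2 scaling) 0 members differed by over 2-fold, and by the exact count interval, an alternative chosen after seeing the data, 8 again differed, with Dpysl4 among them in place of Marcks. No log2 ratio changed sign except that of Marcks, which ran from -1.74e-05 with DESeq2 size factors to 0.04. The TMM and DESeq2 settings use counts not corrected for length. Length largely cancels from a ratio between libraries for a gene with 1 transcript, such as Marcks, but need not where several transcripts are mixed. In the TMM setting the median of all genes was 0.00, against 0.03 by TPM. The TMM factors themselves were 0.997 and 1.003. Without these factors the count ratio was already 0.01 for Marcks (0.04 by TPM) and -0.13 for Dpysl3 (-0.07 by TPM). It was also under the TPM ratio for Gap43 (0.13 and 0.16), Basp1 (0.22 and 0.25), Marcksl1 (-0.13 and -0.10) and Dpysl2 (-0.37 and -0.34). For Dpysl4 both ratios were 0.04. Over the settings Dpysl2 ran from -0.38 to -0.33, Dpysl3 from -0.14 to -0.07 and Basp1 from 0.21 to 0.26. Without length correction the members' median was 620.2 CPM, and shares of the CRMP family by expected counts were 22.2% for Crmp1, 37.2% for Dpysl2, 19.3% for Dpysl3, 13.5% for Dpysl4 and 7.87% for Dpysl5. By counts Marcksl1 over Marcks was 1.46 on the log2 scale. The posterior mean gave a Dpysl3 share of 25.74%. A ratio between pools needs both libraries, so leaving out 1 was possible for levels and shares only. No paired analysis was possible because there is 1 group. Depth was at least 10503 counts for each member in each library, and there are 2 pools.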
